A study of Homo sapiens with 6 samples.

Results

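The loops described here are those of human chromosome 22: every loop of the deposited list with both anchors on that chromosome, 661 of 46849 loops in all. The members were chosen by position alone. The list comes from Micro-C of HAP1, a near-haploid line that descends from KBM-7, a line of chronic myeloid leukaemia, and the study used it to tie regulatory elements to genes. All 6 replicates form 1 group of wild-type HAP1 cells that had been flow-sorted as diploid after Hoechst staining, crosslinked with 1% formaldehyde for 10 min and 3 mM DSG for 45 min, and digested with MNase to 80 to 90% monomers. The labels name no treatment and no comparison group, and they do not say whether the replicates were separate cultures. The replicates are pooled into 1 list, so no value below has a spread between replicates and no difference has a test. Intervals are exact 95% intervals for counting error over loops (Poisson for densities and contact counts, binomial for shares, order statistics for medians). They are too narrow in so far as neighbouring loops share anchors and reads.

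Chromatin loops are commonly formed when cohesin extrudes DNA until it meets CTCF bound at convergent sites, and other loops join promoters with enhancers. A loop appears in a contact map as a spot where a pair of anchors touch more often than their surroundings. Chromosome 22 is a small acrocentric chromosome whose short arm is made of satellite and ribosomal repeats, whereas its long arm, 22q, is rich in genes. Its proximal part holds the low-copy repeats at which recurrent 22q11 deletions arise, and the immunoglobulin lambda light chain genes. BCR lies just beyond them. It encodes a kinase and GTPase-regulating protein and is the gene joined to ABL1 of chromosome 9 in the Philadelphia translocation, which moves the part of 22q beyond the break to chromosome 9. HAP1 is known to carry this translocation from KBM-7. The coordinates of hg19 follow the normal chromosome, so that positions on either side of the break are neighbours in the list whatever their arrangement in these cells. The breakpoint region, taken as 23.5 to 23.7 Mb of hg19 and thus 200 kb wide, is called the BCR window here.

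Loops reached almost the whole of 22q. The first anchor began at 17080001 and the last ended at 51135000 (hg19, as are all positions here), a covered length of 34.055 Mb. Chromosome 21, the acrocentric chromosome of like length, was covered from 10815001 to 47880000, or 37.065 Mb. Anchors on chromosome 22 were 5 kb wide for 588 loops and 10 kb wide for 73. The share of 10 kb loops, 73 of 661, was the lowest of the 23 chromosomes, and that of chromosome 21, 78 of 422 or 18.5%, was the highest.

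Chromosome 22 was densely looped. It carried 19.4 loops per covered Mb (interval 18.0 to 20.9), the second highest value of the 23 chromosomes after chromosome 19 with 25.3. Chromosomes 15 with 19.39 (18.4 to 20.4) and 17 with 19.26 (18.3 to 20.2) were close to its 19.41. Their intervals overlapped that of chromosome 22, so its second place is not set apart from them. Chromosome 21 had 422 loops and the lowest value, 11.4 per Mb (10.3 to 12.5). The ratio of chromosome 22 to chromosome 21 was 1.70 (1.51 to 1.93). Over the 34 windows of 1 Mb that hold an anchor on each chromosome it was 1.57 (1.38 to 1.77), as 4 windows of chromosome 21 held none. The covered length of chromosome 21 takes in 4.51 Mb without an anchor, from 11120001 to 15630000, because 2 loops lie below that stretch. On chromosome 22 the longest such stretch measured 1.34 Mb, so the ratio of 1.70 is not at like coverage. By loops per window with an anchor, chromosome 22 ranked 3 and chromosome 21 was again last. The difference was carried by 5 kb loops: among 10 kb loops the ratio was 0.852 (0.611 to 1.19). The RefSeq table (GRCh38.p14) lists 451 protein-coding genes for chromosome 22 and 239 for chromosome 21, a ratio of 1.89. Per gene, chromosome 22 thus had 1.47 loops and chromosome 21 had 1.77, which are ranks 20 and 18 among the 23 chromosomes. Gene numbers, and the order of genes beside BCR, were taken from that table, but no positions, which belong to another build.

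**Figure D1:**
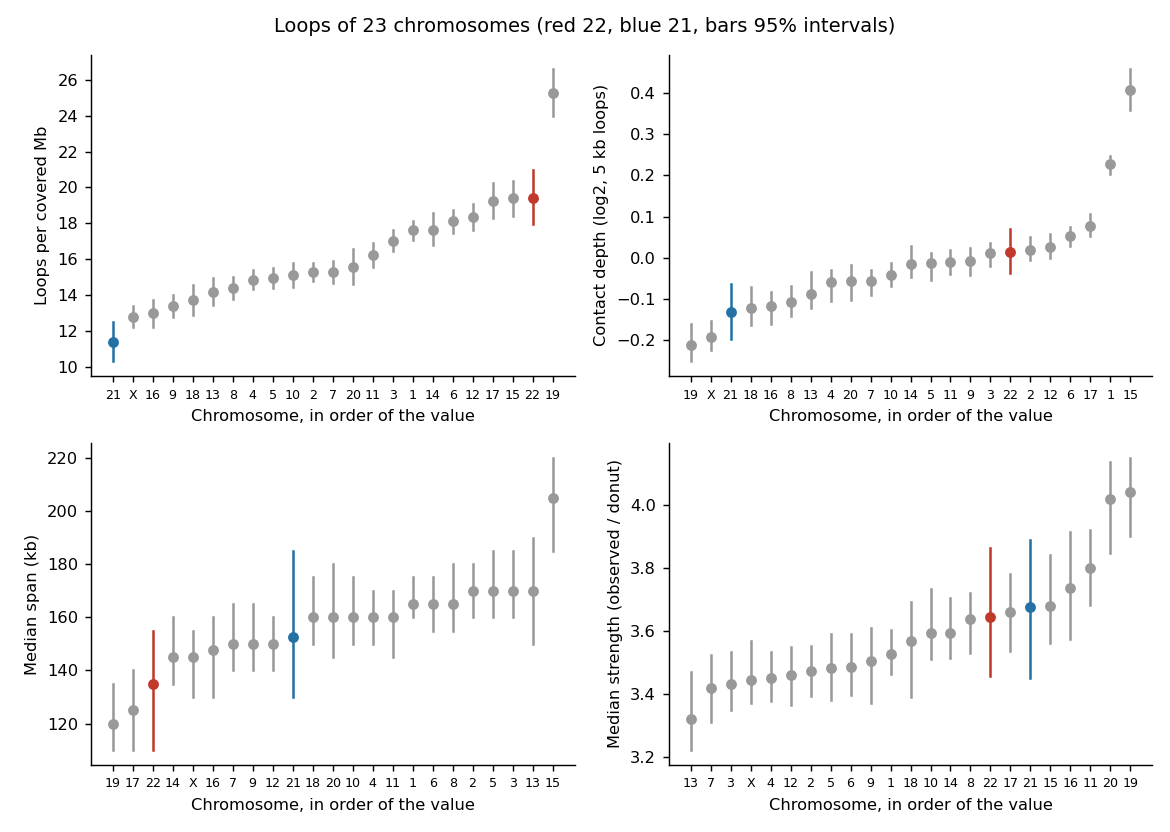
Loops per covered Mb, contact depth (log2 of the donut expectation relative to loops of like span), median span (kb) and median strength (observed over donut expectation) of 23 chromosomes, each panel in order of its value, with 95% intervals as bars. Chromosome 22 (red) is second in density at 19.4 loops per Mb, close to chromosomes 15 and 17, and chromosome 21 (blue) is last at 11.4. The median strengths of 22 and 21, 3.64 and 3.68, lie close together.

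Density varied along the arm. The 35 windows of 1 Mb held from 0 to 42 loops with an anchor there, with a median of 26. The fullest was 39 to 40 Mb with 42 loops, followed by 30 to 31 Mb and 41 to 42 Mb with 40 each, 28 to 29 Mb with 37, and 29 to 30 Mb and 38 to 39 Mb tied with 34 each. These windows lay between 28 and 31 Mb and between 38 and 42 Mb, where 40 to 41 Mb held 29. The emptiest part was distal: 5 loops had an anchor in 47 to 48 Mb, none in 48 to 49 Mb and 8 in 49 to 50 Mb. The longest stretch without an anchor, 47990001 to 49330000 (1.34 Mb), lay there and was bridged by 1 loop. The next were 27155001 to 27800000 (645 kb) and 34815001 to 35420000 (605 kb), each bridged by 3 loops. On chromosome 21 the longest such stretches measured 4.51 and 2.145 Mb, and no loop bridged either. Whether such stretches lack mapped reads or only loops cannot be told from the list.

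**Figure D2:**
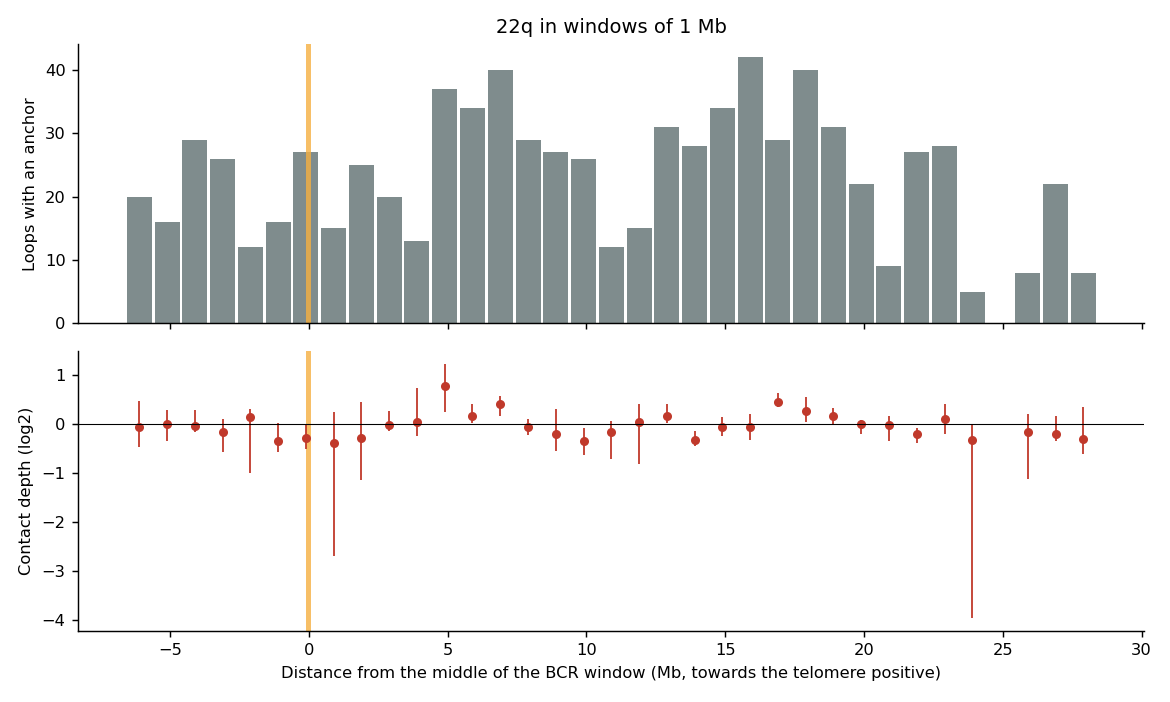
Loops with an anchor in each 1 Mb window of 22q (upper) and the median contact depth of 5 kb loops centred there (lower, log2, bars 95% intervals), against the distance from the middle of the BCR window (orange). The fullest windows hold 40 to 42 loops, and the highest depth, 0.78, is at 28 to 29 Mb.

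Loops lay close on both sides of the BCR breakpoint region, and none passed over a narrow stretch within it. Below the window lay 104 loops, above it 550, and 7 had an anchor inside. Of all 661 loops, 0 joined the chromosome below the window with the chromosome above it. A count of 0 read as up to 3 allows up to 0.454% of all loops, a limit that is not one of the exact intervals. Most of these loops lie too far from the window to cross it, so this share says little about the window itself. Windows of this width crossed by no loop are common, however: they made up 19.3% of 6772 such windows along chromosome 22, with a median of 2 crossing loops, and 39.4% of those on chromosome 21. With the window widened by 100 kb on each side, the count was again 0.

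The 7 loops with an anchor in the window split into 4 that ended at or before 23625000 and 3 that began at or after 23655001. The 4 lower ones hung on a pair of anchors. The loop from 23520001-23525000 to 23620001-23625000 had 126 contacts (interval 105 to 150) against a donut expectation of 7.81, a ratio of 16.1 over 15 merged pixels. The donut expectation is the count that the ring around the spot predicts, and the observed count divided by it is called strength here. To the same upper anchor ran a loop of 320 kb from 23300001-23305000, with 35 contacts against 1.91 expected, a ratio of 18.4. It ranked 4 in strength on the chromosome among loops with an expectation of at least 1. The others were weaker: 43 contacts against 16.5 over 35 kb from 23485001-23490000 to 23520001-23525000, and 38 against 15.9 over 60 kb from 23520001-23525000 to 23580001-23585000. The last of these rested on q-values of up to 0.138, and the one before it on a single pixel.

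On the upper side, the anchor 23655001-23660000 sent 1 loop of 70 kb to 23725001-23730000, with 56 contacts (42.3 to 72.7) against 5.41, a ratio of 10.4. A further loop of 275 kb from the same anchor, to 23930001-23935000, had 13 contacts (6.92 to 22.2) against 1.86. Another ran 1.385 Mb from 23675001-23680000 to 25060001-25065000, with 15 contacts against an expectation of only 0.0853. Expectations near the window were mostly below those of loops of like span elsewhere, namely for 6 of the 7 loops. They were 5.41 against 12.1 for the 70 kb loop, 1.86 against 5.52 for that of 275 kb and 1.91 against 5.09 for that of 320 kb. Nearer the lower edge the gap was smaller: 7.81 against 9.39 for the 100 kb loop and 16.5 against 19.7 for the 35 kb loop, and the 60 kb loop had 15.9 against 13.9.

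Between these groups, 23625001 to 23655000 lay inside no loop at all, anchors included. On either side of these 30 kb the window's 5 kb positions lay inside 2 to 4 loops. Along the arm 15 stretches lay inside no loop, 2.92% of its 6811 positions, against 22.3% of 7413 positions on chromosome 21. Of the 8275 kb inside no loop on chromosome 21, 4510 kb were the single stretch from 11120001 to 15630000. Chromosome 22 had 995 kb in all. The share on chromosome 22 was the lowest of the 23 chromosomes, whose median was 10.5%. Shares run from the first to the last anchor, and centromeres were not left out. The range of chromosome 22 lay wholly on 22q, so this rank is not at like coverage. The stretch in the BCR window was among the shorter ones (12 of the 15 were at least as long), and the longest were 18635001 to 18890000 (255 kb) and 22295001 to 22520000 (225 kb). Around it, 15 loops ended within 500 kb below and 13 began within 500 kb above. Other stretches had as many loops about them: 40745001 to 40780000 had 19 below and 15 above, 38365001 to 38445000 had 13 and 23, and 42985001 to 43010000 had 16 and 12. Whether the translocation has a part in the missing loops was not tested, and loops between chromosomes 9 and 22 cannot be seen in a list in which 0 loops join different chromosomes.

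**Figure D3:**
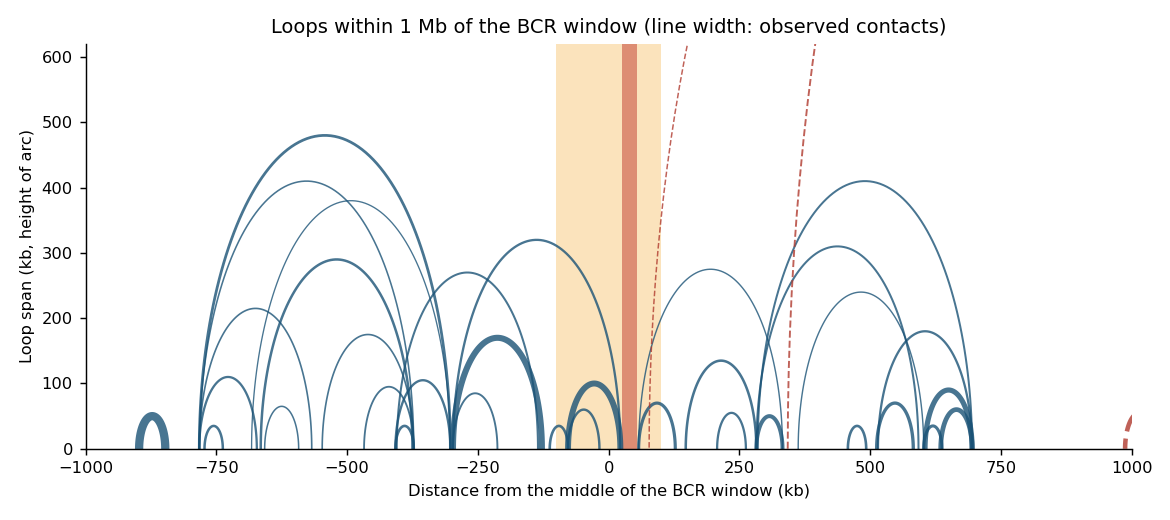
Loops within 1 Mb of the middle of the BCR window (orange), drawn as arcs whose height is the span in kb and whose line width grows with the observed contacts. Dashed arcs are loops that begin within the plotted range and end above it. Loops that begin below the range are not drawn. No arc passes over the 30 kb marked in red, and the heaviest arcs that end at its edges have 126 contacts below it and 56 above it.

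**Figure D4:**
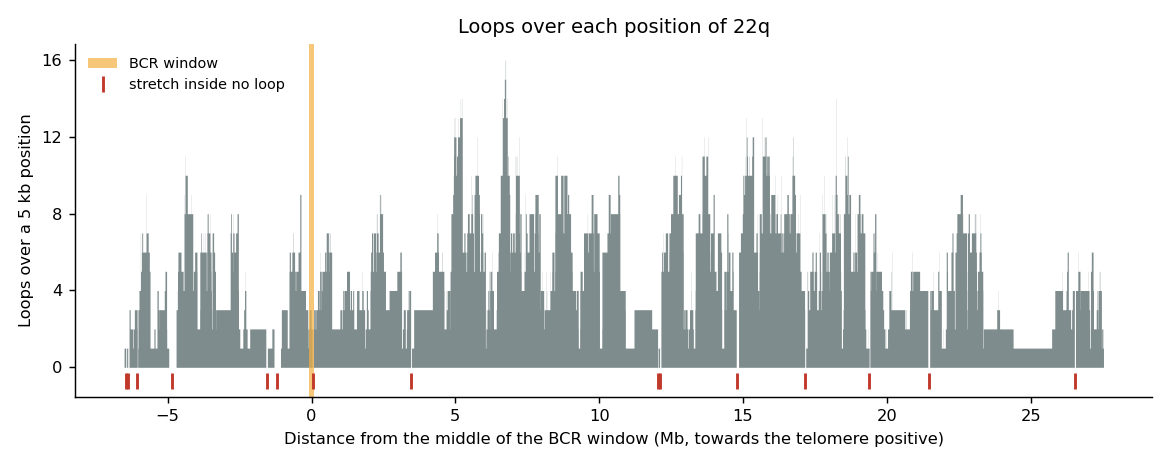
Number of loops over each 5 kb position of 22q, anchors included, against the distance from the middle of the BCR window in Mb. Red ticks mark the 15 stretches inside no loop, and the highest column reaches 16 loops.

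The nearest loop wholly below the window, from 23300001-23305000 to 23470001-23475000, was one of the strongest of the chromosome, with 129 contacts (108 to 153) against 7.02, a ratio of 18.4. The nearest wholly above it, from 23745001-23750000 to 23880001-23885000, had 41 contacts against 7.58. In the RefSeq table (GRCh38.p14) the protein-coding genes below BCR are, in order towards it, IGLL5 (an immunoglobulin lambda-like gene), RSPH14, GNAZ (a G protein alpha subunit) and RAB36 (a Rab GTPase), and IGLL1, part of the pre-B cell receptor, lies above it. Which of these genes holds an hg19 anchor was not analysed here.

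Above the window there were 20.0 loops per Mb (18.4 to 21.8) over 27.435 Mb, and below it 16.2 (13.2 to 19.6) over 6.42 Mb, a ratio of 1.24 (1.002 to 1.54). It was 1.31 (1.04 to 1.66) with 5 kb loops alone and 1.32 (1.07 to 1.65) per 1 Mb window with an anchor. Within 5 Mb of the window the order turned, with 14.4 per Mb above (72 loops) and 15.6 below (78 loops), a ratio of 0.923 (0.661 to 1.29). Only loops wholly inside each flank were counted, so those across the outer edges at 28700000 and 18500001 were left out. The upper edge falls within 28 to 29 Mb, where 37 loops had an anchor, so the order can depend on where the edges fall. With 10 kb loops alone the order turned as well (0.834, interval 0.472 to 1.56). Median strength was 3.65 above (3.46 to 3.93) and 3.55 below (2.88 to 4.01). Median span was 140 kb above (110 to 160) and 112.5 kb below (90 to 170). Observed counts had medians of 35.5 and 35 contacts, and donut expectations medians of 9.42 and 9.60. The intervals of strength and of span overlapped between the sides.

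Contact depth was compared at like span, because expectations fall as loops lengthen. Each 5 kb loop was given the log2 ratio of its donut expectation to the median of all 5 kb loops of the list with like span, so that 0 is the level of the list as a whole. For chromosome 22 the median was 0.01 (-0.04 to 0.07), a ratio of 1.01 to the list and rank 7 of the 23 chromosomes. Chromosome 21 stood at -0.13 (-0.20 to -0.06), rank 21. The ratio of chromosome 22 to it was 1.11, with outer bounds of 1.02 and 1.20 taken from the 2 intervals. Without the adjustment the median donut expectation was 9.41 contacts on chromosome 22 (8.95 to 10.2) and 7.85 on chromosome 21 (7.23 to 8.63). Observed counts followed, with medians of 36 (33 to 38) and 29 (26 to 31) contacts.

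Above the BCR window the median depth was 0.05 (-0.01 to 0.10, 493 loops) and below it -0.10 (-0.27 to -0.02, 88 loops), a ratio of 1.11 between them with outer bounds of 1.01 and 1.30. Under each of 8 alternatives the difference kept its direction, but its bounds then took in 0. Without the loops centred at 28 to 31 Mb the ratio was 1.05, with outer bounds of 0.956 and 1.24.

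Depth also varied along the arm, although single windows of 1 Mb hold few loops and their medians are less precise than those of the sides. Among the 34 windows of 1 Mb with at least 3 loops of 5 kb, it ranged from -0.38 to 0.78 (SD 0.26 between windows), and 13 lay above 0. The highest windows were 28 to 29 Mb (0.78, interval 0.26 to 1.23), 40 to 41 Mb (0.46, 0.36 to 0.64) and 30 to 31 Mb (0.42, 0.17 to 0.57). The lowest were 24 to 25 Mb (-0.38, -2.69 to 0.25), 22 to 23 Mb (-0.35, -0.56 to 0.03) and 33 to 34 Mb (-0.33, -0.63 to -0.07). The intervals of the first pair of low windows took in 0.

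Some longer stretches are described with bounds drawn after the windows had been seen, so that their levels follow in part from that choice. From 22 to 26 Mb, on both sides of the break, all 4 windows lay below 0 and the median of their 56 loops was 0.807 times the list's level (0.738 to 0.910). From 28 to 31 Mb it was 1.33 times that level (1.18 to 1.44, 87 loops) and from 40 to 42 Mb 1.32 times (1.18 to 1.46, 54 loops). Between the latter pair, from 31 to 40 Mb, it was 0.935 (0.891 to 0.996, 179 loops). Neighbouring windows could also part, as 36 to 37 Mb (0.16) and 37 to 38 Mb (-0.31) did. Median strength was 4.80 at 22 to 26 Mb and 2.94 at 28 to 31 Mb, an order opposite to that of depth; the donut expectation is the divisor of strength and the basis of depth, so the pair of values is not independent. Observed counts there had medians of 36.5 and 43 contacts.

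Loops on chromosome 22 were short. The median span of 135 kb (110 to 155) ranked 21 of the 23 chromosomes, of which 19 was the lowest with 120 kb, and chromosome 21 had 152.5 kb (130 to 185). The intervals of 22 and 21 overlapped. Quartiles on chromosome 22 were 65 and 320 kb. Under 100 kb there were 272 loops, 41.1% (37.4 to 45.0%) against 35.8% (31.2 to 40.6%) on chromosome 21 and 36.3% in the whole list. At the other end 15 loops, 2.27% (1.28 to 3.72%), spanned 1 Mb or more, against 7.35% (5.05 to 10.3%) on chromosome 21 and 3.83% in the whole list. Only 2 loops of chromosome 22 reached 2 Mb, against 7 on chromosome 21. These spans are not at like resolution. On chromosome 22 the median was 370 kb for 10 kb loops and 110 kb for 5 kb loops. The share of 10 kb loops was lowest on chromosome 22 and highest on chromosome 21. Among 5 kb loops alone, 262 of 588 on chromosome 22 and 146 of 344 on chromosome 21 spanned under 100 kb.

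The longest loop, 2.78 Mb from 47200001-47210000 to 49980001-49990000, was the one that bridged the long anchor-free stretch. It rested on 15 contacts (8.40 to 24.7) in 1 pixel, against 2.58 expected. The next, 2.73 Mb from 29805001-29810000 to 32535001-32540000, had 12 contacts against 0.129. Then came 1 of 1.975 Mb, from 46010001-46015000 to 47985001-47990000, with 48 contacts (35.4 to 63.6) against 0.126, the highest ratio on the chromosome at 381, in a single pixel. Next in length were 1.885 Mb from 23940001-23945000 to 25825001-25830000 with 25 contacts against 0.105. The last of the 5, 1.73 Mb from 33690001-33700000 to 35420001-35430000, had 20 against 4.17. The loops with 5 kb anchors among these thus had 12 to 48 contacts. All fell in the longest span bin used for contact depth, whose median expectation was 1.96. That bin has no upper limit and also held a loop of 1.3 Mb, so its median is not a match at like span for the longest loops.

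Strength on chromosome 22 was near that of the list. Its median was 3.64 (3.46 to 3.86; quartiles 2.58 and 5.49), rank 8 of 23, and on chromosome 21 3.68 (3.45 to 3.89). By span, the median on chromosome 22 rose from 2.63 for loops under 100 kb to 4.40 for those of 100 to 200 kb. It was 4.58 from 200 kb up to 500 kb, then 5.32 below 1 Mb, and 11.4 for the 15 loops of 1 Mb or more, with an interval of 5.20 to 92.7. In the class of 100 to 200 kb it lay above the whole list's 3.79 (3.87 to 4.78 against 3.74 to 3.83), while chromosome 21 had 3.91 (3.47 to 4.31). In that class the donut expectation was 9.28 on chromosome 22, 8.24 on 21 and 8.88 in the list. Under 100 kb the expectation was 15.6 (14.8 to 16.5) on chromosome 22 and 12.8 (12.1 to 14.0) on 21, with strengths of 2.63 and 2.69.

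The loop with the most contacts was also among the strongest. It joined 41345001-41350000 with 41485001-41490000 over 140 kb by 330 contacts (295 to 368) against 18.3, a ratio of 18.0 over 18 pixels. The next by count were 184 contacts over 50 kb at 22700001-22705000 to 22750001-22755000 (12.2 expected), 145 over 185 kb at 29250001-29255000 to 29435001-29440000 (11.9 expected), 140 over 95 kb at 25345001-25350000 to 25440001-25445000 (16.7 expected) and 136 over 180 kb at 19715001-19720000 to 19895001-19900000 (10.2 expected). The loop with 184 contacts rested on 2 pixels, while that with 140 merged 39, the most on the chromosome. In all 31 loops of chromosome 22 had 100 contacts or more, against 12 on chromosome 21.

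Among loops with an expectation of at least 1, the strongest pair lay side by side. The loop from 25640001-25645000 to 25865001-25870000 had 53 contacts against 1.83 (ratio 29.0), and that from 25655001-25660000 to 25910001-25915000 had 20 against 1.04 (ratio 19.3). The 3 that followed were the loops from 23300001-23305000 and the loop with 330 contacts, already named, with ratios of 18.0 to 18.4. A further loop beside the pair, 25685001-25690000 to 25980001-25985000, had 20 contacts against 0.738. It belongs to 8 loops with an expectation under 1, of which 4 had both anchors between 23.5 and 26 Mb. These 4 were the loops of 1.385 and 1.885 Mb, this one, and a 380 kb loop at 24685001-24690000 to 25065001-25070000 with 48 contacts against 0.660. The stretch held 38 of the 661 loops and, described after its values had been seen, 5 of the 8 highest ratios of the chromosome. On chromosome 21, 2 loops had an expectation under 1. Ratios over such expectations have little precision, and the contact counts are firmer than these ratios. The loops from 25655001-25660000, 25685001-25690000 and 24685001-24690000 each rested on a single pixel, however.

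Anchors were shared by most loops. After anchors that overlapped by at least 1 bp had been merged, chromosome 22 had 687 anchors. Of its loops 594, or 89.9% (87.3 to 92.1%), shared an anchor with another loop, rank 11 of 23, against 87.9% (84.4 to 90.9%) on chromosome 21. There were 373 anchors with 1 loop, 151 with 2, 77 with 3, 46 with 4 and 40 with 5 or more, here called hubs. Hubs made up 5.82% of anchors on chromosome 22 and 6.33% on chromosome 21, which had 28. The share of anchors that were hubs ranked 20 of 23. Loops with 10 kb anchors can merge neighbouring anchors, and with 5 kb loops alone chromosome 22 had 25 hubs instead of 40. The share of 10 kb loops was lowest on chromosome 22 and highest on chromosome 21, so the hub shares and this rank are not at like resolution. Whether the high density of loops came with a higher or lower share of hubs was not tested.

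The 7 anchors with 7 or more loops lay between 28 and 42 Mb. The first, 28835001-28840000, held 9 loops, 8 of them to lower positions, over 35 to 420 kb with 26 to 79 contacts each and a median strength of 2.65. The second, 41840001-41850000, also held 9, 5 to lower and 4 to higher positions, with 16 to 109 contacts. Of 4 anchors with 8 loops, 39260001-39270000 sent 6 to higher positions and 39920001-39930000 6 to lower ones, and the strongest loop of each, with a ratio of 10.9, joined them to each other. The other anchors with 8 loops were 28990001-29000000, with a median strength of 6.73, and 30820001-30830000, whose loops reached up to 1160 kb. With 7 loops, 34310001-34320000 sent 6 to lower positions.

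A further 10 anchors tied at 6 loops, from 19160001-19170000 to 43780001-43785000, and the 3 with the most contacts in sum are described. The anchor 41345001-41350000, the lower end of the loop with 330 contacts, sent 5 of its 6 to higher positions, as did 30680001-30690000. All 6 loops of 38965001-38970000 ran to lower positions. So did the 6 loops of another of the 10, 21050001-21060000, named after its values had been seen, whose median strength was 8.84. Such one-sided hubs numbered 15 of the 40, of which 7 ran to higher and 8 to lower positions. Among all anchors with at least 2 loops, 38.9% had loops on both sides on chromosome 22 (122 of 314) and 48.1% on chromosome 21 (90 of 187).

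**Figure D5:**
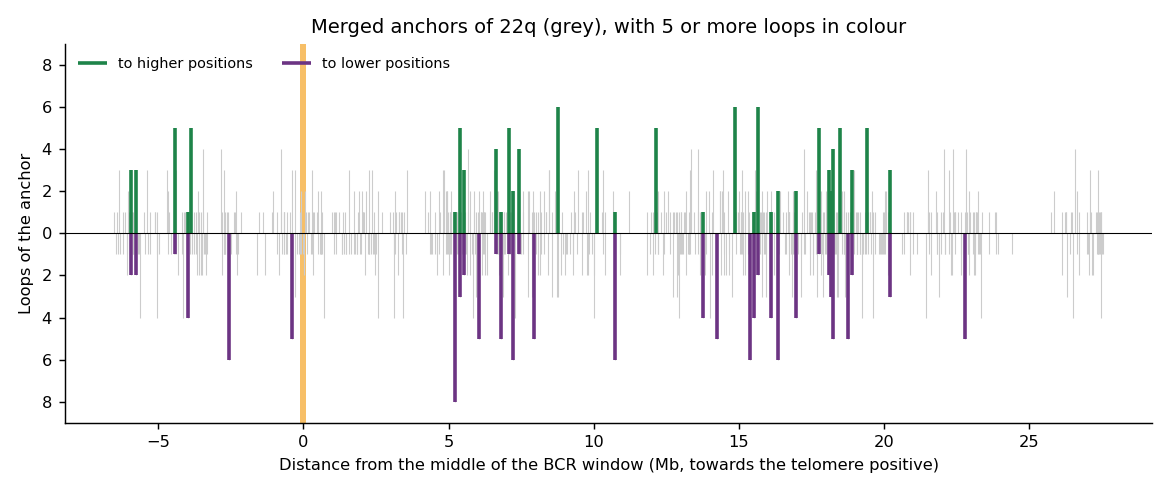
Merged anchors of 22q against the distance from the middle of the BCR window in Mb, with the number of loops to higher positions drawn upwards and to lower positions downwards. The 40 anchors with 5 or more loops are coloured, and the longest line, 8 loops downwards, belongs to the anchor 28835001-28840000.

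Hubs were unevenly spread along the arm, in blocks whose bounds were chosen after seeing the anchors. There were 5 among 59 anchors from 17 to 20 Mb, 2 among 135 from 20 to 27 Mb and 12 among 160 from 27 to 34 Mb. Further on there were 4 among 66 from 34 to 38 Mb, 14 among 143 from 38 to 43 Mb and 3 among 124 from 43 to 52 Mb. Below the BCR window 7 of 116 anchors were hubs and above it 33 of 563. Within 5 Mb above it there was none among 93 anchors, where the fullest held 4 loops, and within 5 Mb below it there were 5 among 86, including 23220001-23230000 with 5 loops. Only loops wholly inside these flanks, which end at 28700000 and begin at 18500001, were counted. The upper edge lies beside the hub 28835001-28840000, 8 of whose loops run to lower positions. Anchors near the edges can thus hold fewer loops here than on the whole chromosome, which bears on the hub counts and the shares below. The share of loops with a shared anchor was 77.8% and 92.3% on these flanks. Loops with 10 kb anchors, which can merge neighbouring anchors, made up 9.72% of loops on the upper flank and 19.2% on the lower.

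Loops that share anchors directly or through others were joined into groups. Chromosome 22 fell into 115 such groups, 67 of them single loops, and 15 groups of at least 10 loops held 461 loops, 69.7% of all. The largest group ran from 27150001 to 33610000 and held 139 loops on 115 anchors, 21.03% of the chromosome's loops, against 15.4% (65 loops) in the largest of chromosome 21. The next had 66 loops (38445001 to 40745000), 54 (41215001 to 42985000), 38 (35770001 to 38365000) and 28 (45665001 to 46940000). All 5 lay above 27 Mb. Below the BCR window the largest group held 17 loops (18890001 to 19710000).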

How the data were processed

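Per the labels, 6 Micro-C replicates of HAP1 were made, and the authors deposited 1 pooled loop list. The submitters' processing notes name BWA and hg19, and juicer_tools 1.22.01 stands in the file header, with column names of the HiCCUPS caller. No source used here gives caller settings, pooling or sequencing depth. Per the file headers, the list holds observed contact counts, expected counts that the caller modelled from 4 surroundings, q-values, merged pixels and their radius; positions are printed 1-based. The last loop of chromosome 22 ended at 51135000.

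Loops were assigned by chromosome and position. Span is the distance between anchor midpoints. Contact depth used 40 span quantiles of 5 kb loops; loops of equal span shared a bin, which left 36 bins. The last bin runs up to the longest loop, so spans within it differ widely. Tools were Python 3.11.15, matplotlib 3.10.9, scipy 1.17.1, pandas 2.3.3 and numpy 2.4.6, and functions were tested on simulated data. No test was run, since the list has no replicates. Named regions followed a fixed rule (10 fullest anchors with ties broken by summed contacts, 5 highest counts, longest and strongest loops, 3 longest anchor-free stretches, 5 fullest windows, 3 highest and lowest depths). The members and lists were chosen with earlier results of these data known. Anchor genes and sequences were not analysed here, as no hg19 genome was used.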

Additional observations from a re-analysis of the deposited data

How the results depend on the processing

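Of 58 alternative values for the main results, 36 lay inside the reported interval or, for counts, within 1.5 times. The loop density of 19.4 per Mb became 17.3 with 5 kb loops, 2.15 with 10 kb loops, 17.5 with at least 2 merged pixels and 15.1 with each q-value at or below 0.1, since fewer loops were counted. The ratio of densities of chromosomes 22 and 21 turned to 0.852 with 10 kb loops. With 10 kb loops median span was 370 kb and median strength 2.65. Strength was 4.27 with each q-value at or below 0.1, 3.45 over the lower-left and 2.83 over the largest of the 4 expectations. The share of loops with a shared anchor was 87.2% with 5 kb loops, 34.2% with 10 kb loops and 97.3% with anchors within 10 kb merged. Hubs numbered 25, 0 and 76 under those settings, 26 with at least 2 pixels and 23 with the q-value limit, against 40. Contact depth of chromosome 22 was 0.087 from observed counts. The ratio of densities above and below the BCR window turned to 0.923 within 5 Mb of it and 0.834 with 10 kb loops, and was 1.31 with 5 kb loops and 1.32 per window. The value within 5 Mb leaves out loops across the outer edges of the flanks. The count of loops across the window was 0 under all 5 alternatives. The stretch there inside no loop was 410 kb with 10 kb loops alone, of which there are few, and 30 or 40 kb under the other 4 alternatives, chosen after seeing the data, as was that without 28 to 31 Mb. Apart from the settings with fewer loops, the cause was not tested. No paired analysis was possible because the list pools the replicates, and none could be left out. A loop of 15 contacts has an interval of 8.40 to 24.7, so that single long loops are known least precisely.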
